A study of Rattus norvegicus with 9 samples.

Results

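Extracellular matrix and stellate cell genes were described across the RNA of pancreatic islets from rats that were given, taken off, or not given the drug rosiglitazone. The set was a list of 45 genes: collagens, basement membrane proteins, elastic fibre and adhesive glycoproteins, proteoglycans, enzymes that process or degrade matrix, and 3 markers of the cells that make it (Acta2, Pdgfra and Pdgfrb). Genes were found by symbol in the platform annotation, and each was represented by its brightest probe set over the 9 arrays. This gave 44 of the 45 listed genes, out of 14217 named genes on the array. Thbs1 was not analysed here. Vcan was too dim for the tests, which left 43 genes among 20695 tested probe sets.

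Matrix around islets has a basement membrane next to the capillaries and endocrine cells and an interstitial layer of fibrillar collagen further out. Pancreatic stellate cells, fibroblasts and pericytes make most of the interstitial matrix. Activated stellate cells express smooth muscle actin and the PDGF receptors, and TGF beta is a main signal for their collagen synthesis. Fibrosis around and within islets is a known feature of ageing Zucker Diabetic Fatty rats.

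All animals were male Zucker Diabetic Fatty rats (fa/fa), which are obese through a defective leptin receptor and become diabetic, and all ate the Purina 5008 diet. Rosiglitazone is an insulin sensitiser that activates PPAR gamma, a nuclear receptor. Treated rats were given it from about 5 weeks of age, and their islets were taken at 9 weeks. The drug was given in the diet as powdered Avandia tablets, at 3 mg per kg body weight. Withdrawal rats had it until 9 weeks and were sampled at 11 weeks, after 2 weeks without it. Untreated rats never had it and were sampled at 13 weeks. Each group had 3 Affymetrix Rat Genome 230 2.0 arrays labelled as biological replicates, and whether an array held 1 animal or several was not given in the sources used here. Treatment and age cannot be told apart in any comparison, because no 2 groups were sampled at the same age, and no lean or age-matched arrays were analysed here.

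Array medians ran from 5.74 to 5.81 on the log2 scale, and the SD over probe sets ran from 1.65 to 2.00, so the values were spread most widely on treated replicate 1. Correlations between arrays ran from 0.955 to 0.995, and no arrays held identical values. Beta cell markers averaged between 11.15 and 12.04 per array (7 genes), and markers of acinar cells, the enzyme-secreting cells of the exocrine pancreas, averaged between 13.76 and 13.97 (11 genes). The RNA labelled as islet thus also held bright acinar transcripts on every array.

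Of the 44 genes measured, 40 were above the array's median on each of the 9 arrays. The brightest were Mgp, an inhibitor of calcification, with a mean of 12.76, and Col3a1, a chain of fibrillar collagen, with 12.22. Sparc, a collagen-binding glycoprotein, had 11.62, Bgn, a small proteoglycan, had 11.05, and Col1a1, the main chain of type I collagen, had 10.88. These are brightnesses of different probe sets and give no order of transcript abundance. Stellate, pericyte and smooth muscle markers outside the set were checked by a list of 20 genes, 12 of which were above the array's median on each of the 9 arrays. Vim, an intermediate filament protein, averaged 10.48, Dpt, a matrix protein of fibroblasts, 9.69, and Tagln, an actin-binding protein of contractile cells, 9.07. Gfap and Lrat, markers of quiescent stellate cells, averaged 5.40 and 4.29, which is below the array medians. Des, another marker on this list, averaged 6.99, and its lowest array, at 6.47, was above the array medians. The brightness of single probe sets cannot show whether such cells were present. None of the 18 of these 20 markers that were tested passed in any comparison on the deposited values, and their median differences were 0.18 for treated against untreated, 0.19 for withdrawal against untreated and 0.05 for withdrawal against treated. After quantile normalization the medians were 0.03, 0.23 and 0.29. On that scaling 2 of the 18 (Dpt and Myh11) were lower in treated against untreated islets, beside 9.44% of all probe sets. In withdrawal against treated islets 3 of the 18 (Myh11, Thy1 and Dpt) were higher, beside 14.5%.

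The DNA just before the start of 4 of the genes is shown, because these genes are described with their values below: Tgfbi rose and Fbn1 and Fbln5 fell in treated islets, and Postn had the largest difference after withdrawal. The genes shown were chosen after their values were seen. Each run is the 250 bases before the RefSeq start, 5′ to 3′ on the strand of the gene, in build GRCr8, with matches to 6 searched motifs in capitals. Tgfbi lies on the reverse strand at chr17:7990114-7990363, Postn on the forward strand at chr2:140677811-140678060, Fbn1 on the reverse strand at chr3:133203391-133203640 and Fbln5 on the reverse strand at chr6:126742707-126742956.
Tgfbi: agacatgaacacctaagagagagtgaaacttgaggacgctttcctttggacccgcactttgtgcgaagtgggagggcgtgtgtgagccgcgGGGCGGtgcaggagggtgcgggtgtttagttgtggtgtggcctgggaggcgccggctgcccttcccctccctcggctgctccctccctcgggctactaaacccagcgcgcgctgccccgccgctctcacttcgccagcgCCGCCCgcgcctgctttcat
Postn: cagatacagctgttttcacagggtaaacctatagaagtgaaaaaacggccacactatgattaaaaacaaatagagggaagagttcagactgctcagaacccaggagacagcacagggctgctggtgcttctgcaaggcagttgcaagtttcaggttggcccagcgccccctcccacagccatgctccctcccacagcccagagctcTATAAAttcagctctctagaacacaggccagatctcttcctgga
Fbn1: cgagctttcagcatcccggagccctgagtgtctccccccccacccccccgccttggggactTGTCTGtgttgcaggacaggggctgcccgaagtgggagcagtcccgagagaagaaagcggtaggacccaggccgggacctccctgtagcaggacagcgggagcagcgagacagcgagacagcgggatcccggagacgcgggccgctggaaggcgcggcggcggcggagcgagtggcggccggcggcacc
Fbln5: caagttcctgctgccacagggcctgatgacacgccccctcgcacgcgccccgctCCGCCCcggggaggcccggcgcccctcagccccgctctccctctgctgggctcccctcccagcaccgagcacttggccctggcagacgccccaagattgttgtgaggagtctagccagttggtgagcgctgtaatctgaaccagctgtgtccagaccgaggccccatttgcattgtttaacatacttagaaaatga
In Tgfbi the capitals mark GC boxes that begin 159 bases before the start and, on the opposite strand, 20 bases before it. Postn has a TATA box that begins 44 bases before the start. Fbn1 has a SMAD box on the opposite strand at 189 bases, and Fbln5 a GC box on the opposite strand at 196 bases. Of the 45 listed genes, 29 had an entry in the promoter table, and Eln, Fn1 and Col14a1 did not. The GC box (GGGCGG, either strand) was in 16 of these 29 windows (55.2%) and in 30.5% of the 33469 windows in the table. The other shares were 31% of the 29 against 34% of all for CCAAT, 10.3% against 12.9% for the TATA box (TATAAA), 6.9% against 6.34% for the AP-1 motif (TGANTCA), 20.7% against 17.2% for the SMAD box (CAGACA) and 3.45% against 14.1% for the nuclear receptor hexamer (AGGTCA). No test was made of these shares, and a match is a description of the letters only.

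The first comparison, treated against untreated, asks how islets on the drug at 9 weeks differed from islets never given it at 13 weeks. Of the 10 tested genes for elastic fibres and adhesion, 4 were lower in treated islets and 1 was higher, while the main fibrillar collagens did not pass the test. On the deposited values, 5 of the 43 genes fell (11.6%) and 1 rose (2.33%), by limma with a Benjamini-Hochberg adjusted p under 0.05. Over all tested probe sets, 7.24% were lower and 20.9% were higher. The median difference of the 43 genes was -0.06, beside 0.16 over all tested probe sets. After quantile normalization, which gives all arrays the same distribution, 21 of the 43 genes were lower (48.8%) and 1 was higher, beside 9.44% and 7.75% of all probe sets, and the median was -0.49 beside 0.02. The same 6 genes were among those calls. On the deposited values the count of 6 calls became 18 without treated replicate 1 (17 lower, beside 10.2% of all probe sets), 12 without treated replicate 2 (8 higher, beside 22.5%), and 3 without untreated replicate 2 or 3 (beside 9.82% and 20.9% in either direction). In bulk RNA, fewer cells of a type and less RNA per cell cannot be told apart.

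**Figure D1:**
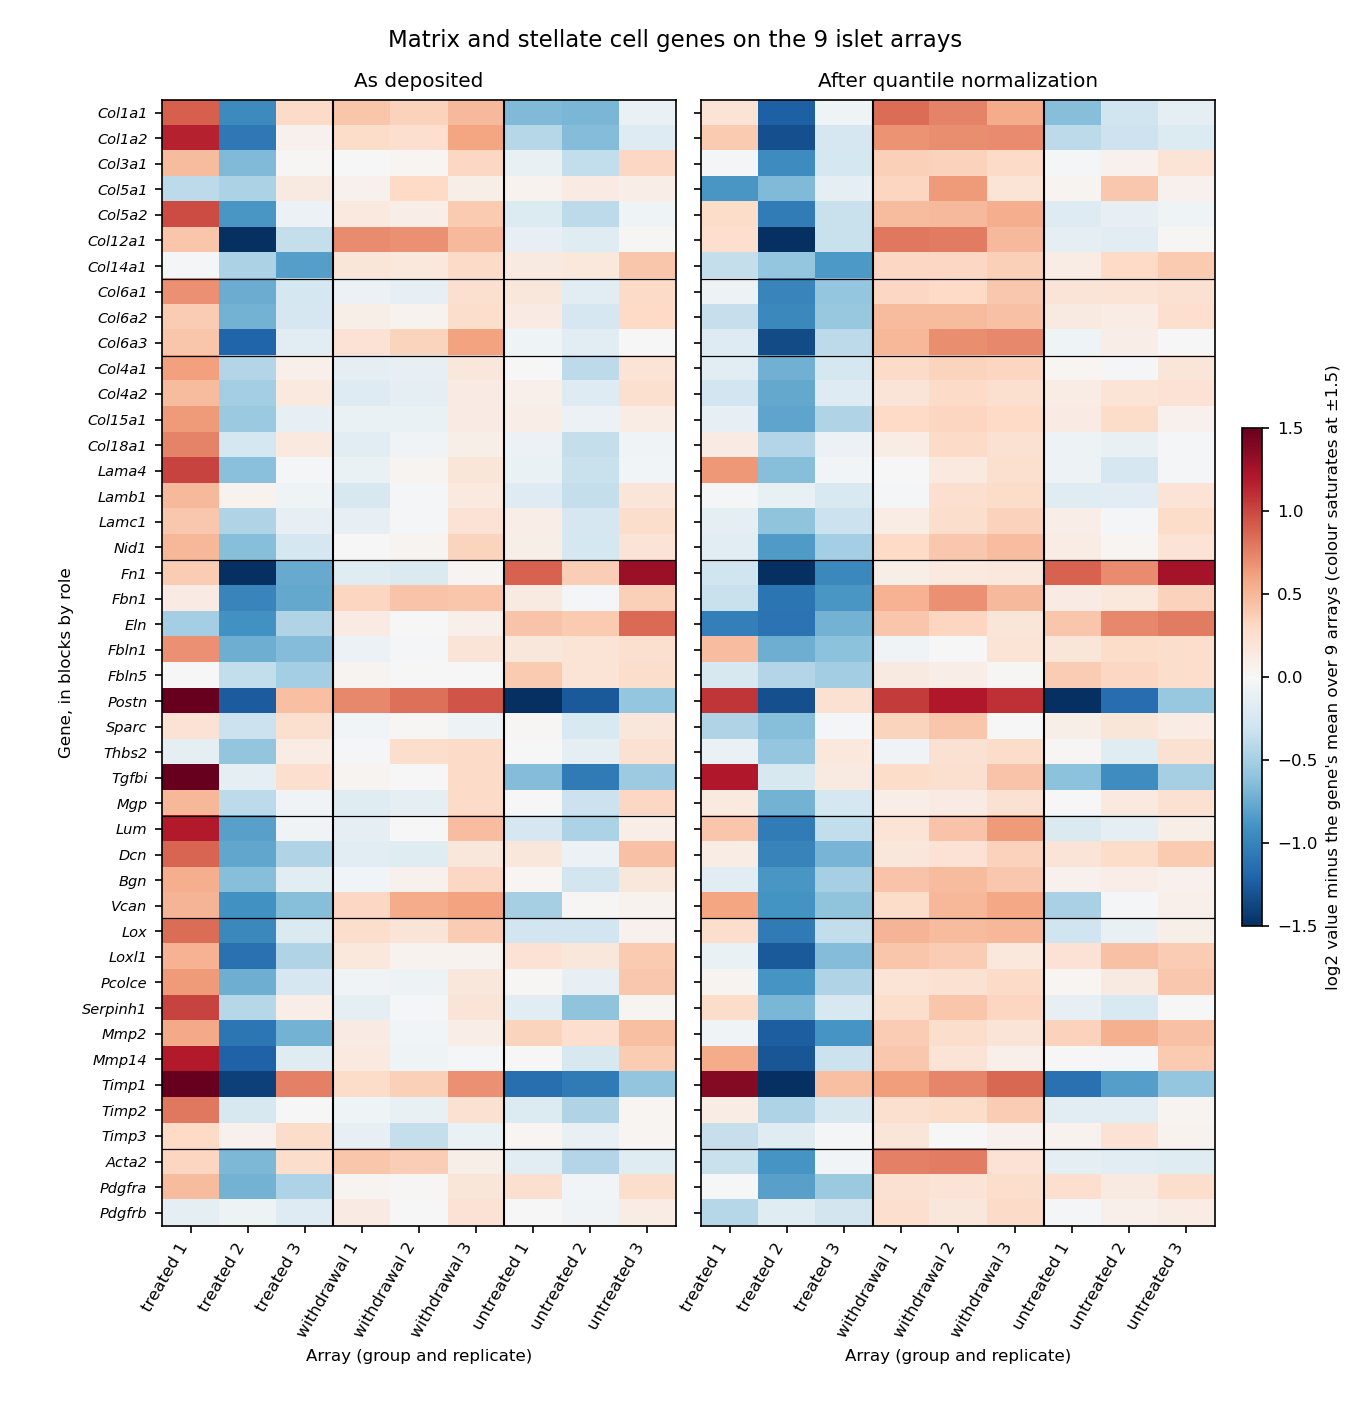
The heatmap shows the log2 value of each of the 44 genes on each of the 9 arrays, minus the gene's mean over the arrays, with genes in blocks by role. The left panel holds the deposited values and the right panel the quantile normalized ones, and colours saturate at 1.5 in either direction. On the left, treated replicate 1 is high and treated replicate 2 is low for most genes. On the right, treated replicates 2 and 3 are low and the withdrawal arrays are high for most genes, and treated replicate 1 is mixed.

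Eln encodes elastin, the core of elastic fibres. Its values were 8.60, 8.21 and 8.66 on the treated arrays, 9.24, 9.11 and 9.19 on the withdrawal arrays and 9.54, 9.51 and 9.96 on the untreated arrays. The 3 groups did not overlap: every treated array was below every withdrawal array, and every withdrawal array below every untreated one. The level was 1.18 ± 0.16 (SE, n = 3 per group) lower on the log2 scale in treated than in untreated islets (limma adjusted p = 0.00129), and the call held with each array left out in turn. A second Eln probe set, dim at 5.06, differed by -0.35 (limma adjusted p = 0.148).

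Fn1 encodes fibronectin, an adhesive glycoprotein that links cells to collagen. Treated arrays had 9.73, 7.52 and 8.59, withdrawal arrays 9.16, 9.13 and 9.39, and untreated arrays 10.23, 9.72 and 10.64. Treated replicate 1 and untreated replicate 2 met at the edge of their groups, while the other treated arrays were well below all untreated arrays. The difference was -1.58 ± 0.42 (SE; limma adjusted p = 0.0179). Without untreated replicate 3 it was -1.36 and no longer passed (limma adjusted p = 0.0611).

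Fbln5 encodes fibulin-5, which guides elastic fibre assembly. Its values were 7.03, 6.66 and 6.52 in treated, 7.07, 7.03 and 7.02 in withdrawal and 7.42, 7.23 and 7.29 in untreated islets. All treated arrays lay below all untreated arrays, with a difference of -0.58 ± 0.14 (SE; limma adjusted p = 0.0133) that passed with each array left out, though only just without untreated replicate 1. Fbn1, which encodes fibrillin-1 of the microfibrils, measured 8.10, 6.99 and 7.21 in treated, 8.30, 8.41 and 8.40 in withdrawal and 8.12, 7.97 and 8.34 in untreated islets. Treated replicate 1 lay within the untreated range and the other treated arrays lay below it. The difference of -0.72 ± 0.23 (SE; limma adjusted p = 0.0388) was the least steady of the 6: it failed in 8 of 9 fits that left out 1 array, and passed only without treated replicate 1. Its other probe set differed by -0.57 (limma adjusted p = 0.143).

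Col14a1, a collagen that sits on the surface of fibrils, had 7.42, 6.97 and 6.62 in treated, 7.63, 7.61 and 7.74 in withdrawal and 7.58, 7.61 and 7.86 in untreated islets. Every treated array was below every array of the other groups. The difference was -0.68 ± 0.18 (SE; limma adjusted p = 0.018), and it missed the threshold without untreated replicate 2 (limma adjusted p = 0.0552) or 3 (limma adjusted p = 0.0618). Its second probe set differed by -0.23 (limma adjusted p = 0.183).

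Tgfbi, an adhesive matrix protein named for its induction by TGF beta, was the 1 gene that rose. It measured 9.77, 7.79 and 8.19 in treated, 7.97, 7.93 and 8.22 in withdrawal and 7.28, 6.87 and 7.39 in untreated islets. Every treated array was above every untreated array, and treated replicate 1 stood far above the rest. The difference was 1.40 ± 0.38 (SE; limma adjusted p = 0.0201) and was 1.25 without untreated replicate 2, where it did not pass (limma adjusted p = 0.0946).

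**Figure D2:**
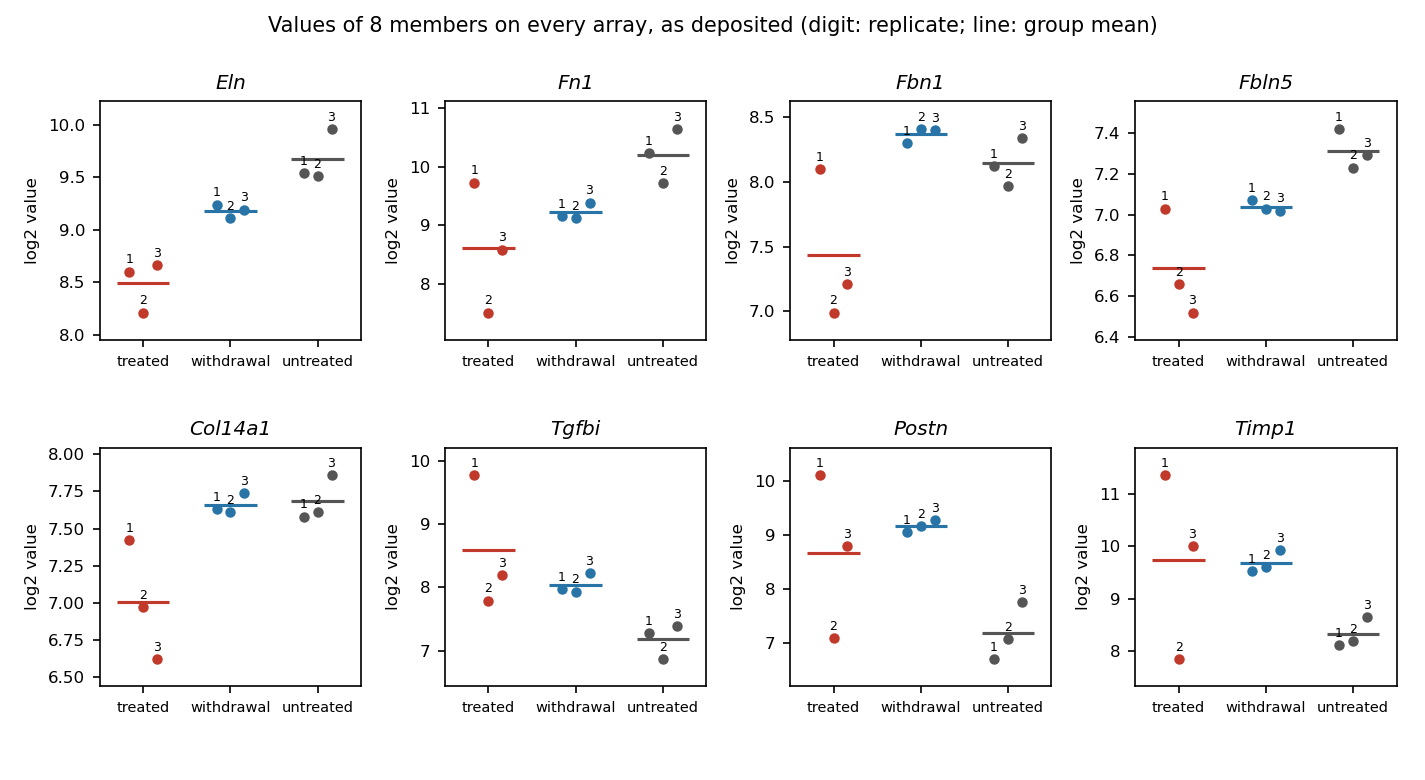
Each panel plots the deposited log2 values of 1 gene on the 9 arrays by group, with the replicate number beside each point and a line at the group mean. Axes differ between panels and do not start at 0. Eln separates the 3 groups in order, from about 8.49 in treated to 9.67 in untreated islets, while Postn and Timp1 are spread over more than 3 log2 units within the treated group.

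Postn and Timp1 had treated means as far above the untreated ones as Tgfbi, with a wide spread. Postn encodes periostin, an adhesive protein of remodelling matrix. It measured 10.10, 7.08 and 8.78 in treated, 9.05, 9.15 and 9.27 in withdrawal and 6.70, 7.07 and 7.75 in untreated islets. Treated replicate 2 was at the untreated level and the other treated arrays were above it. Treated islets differed by 1.48 ± 0.55 (SE; limma adjusted p = 0.0612), and by 2.27 without treated replicate 2 (limma adjusted p = 0.0028). Timp1 encodes an inhibitor of matrix metalloproteinases. Its values were 11.36, 7.85 and 10 in treated, 9.52, 9.60 and 9.93 in withdrawal and 8.11, 8.19 and 8.65 in untreated islets. Treated replicate 2 was below all 3 untreated arrays, so the groups overlapped. The difference was 1.42 ± 0.61 (SE; limma adjusted p = 0.0991) with all arrays and 2.37 without treated replicate 2 (limma adjusted p = 0.00183).

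The main fibrillar collagens did not pass in this comparison. Col1a1 measured 11.77, 9.92 and 11.16 in treated, 11.29, 11.22 and 11.36 in withdrawal and 10.21, 10.19 and 10.78 in untreated islets, a difference of 0.55 ± 0.35 (SE; limma adjusted p = 0.246) between treated and untreated. Col1a2, its partner chain in type I collagen, had 11.29, 9.06 and 10.20, then 10.40, 10.38 and 10.72, then 9.70, 9.48 and 9.94 in the same order. Col3a1 had 12.69, 11.55 and 12.23, then 12.21, 12.24 and 12.53, then 12.11, 11.85 and 12.53. For all 3 genes treated replicate 1 was the highest array of the 9 and treated replicate 2 was the lowest. The treated minus untreated differences of Col1a2 and Col3a1 were 0.48 ± 0.40 and -0.01 ± 0.25 (SE; limma adjusted p = 0.383 and 0.99). Of the 7 fibrillar collagens and partners, Col14a1 alone passed on the deposited values, with a median difference of -0.01 over the 7. After quantile normalization Col5a1, a minor fibril chain, was lower too (-0.73, limma adjusted p = 0.0238), and the median was -0.49. Another Col5a1 probe set, nearly as bright (8.61 against 8.78), differed by only -0.06 after quantile normalization. As deposited the 2 probe sets differed by 0.36 and, at the one used, -0.33.

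Type VI collagen forms beaded filaments near cells. Its 3 genes Col6a1, Col6a2 and Col6a3 differed by -0.21, -0.26 and -0.25 as deposited, and none passed. After quantile normalization Col6a1 and Col6a2 were lower (-0.75 and -0.79, limma adjusted p = 0.019 and 0.00578). A dimmer Col6a2 probe set was lower by limma (difference -0.63, adjusted p = 0.00658), so the probe sets of this gene did not give the same call. The 8 basement membrane genes, which encode chains of type IV, XV and XVIII collagen, laminins and nidogen, had deposited differences from -0.15 (Nid1) to 0.37 (Col18a1), with a median of 0.07, and none passed. After quantile normalization their median was -0.45, and 5 were lower: Col4a1, Col4a2, Col15a1, Lamc1 and Nid1. A dimmer Nid1 probe set differed by only -0.07 on that scaling and by 0.14 as deposited. Other probe sets of Col4a1, Col15a1 and Lamc1 differed by -0.29, -0.42 and -0.41 after quantile normalization. A second Col18a1 probe set was higher by 0.67 (limma adjusted p = 0.0331). Among the proteoglycans, Lum, Dcn and Bgn differed by 0.31, -0.29 and -0.06 as deposited, and none passed, while Dcn and Bgn were lower after quantile normalization (-0.82 and -0.59, limma adjusted p = 0.0285 and 0.0235). Vcan, which encodes the large proteoglycan versican, was not tested and lay between 3.61 and 5.13 on all arrays.

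On the deposited values no gene for processing, crosslinking and turnover passed in treated against untreated islets at the probe set used. After quantile normalization 3 of the 9 were lower: Mmp2 (-1.17, limma adjusted p = 0.00866), Loxl1 (-1.01, limma adjusted p = 0.0137) and Pcolce (-0.62, limma adjusted p = 0.0468), the last of which enhances the cleavage of procollagen. The deposited values of Mmp2, a gelatinase, were 9.28, 7.63 and 8.0 in treated, 8.84, 8.67 and 8.81 in withdrawal and 9.05, 8.97 and 9.17 in untreated islets. Treated replicate 1 was above the untreated arrays and the other treated arrays were below them, and the difference was -0.76 ± 0.31 (SE; limma adjusted p = 0.0854). Its dimmer probe set was lower by limma (difference -0.54, adjusted p = 0.0115). Timp2, another metalloproteinase inhibitor, differed by 0.40 at the probe set used (limma adjusted p = 0.208), but its second probe set was lower (difference -0.81, limma adjusted p = 0.00169). A second probe set of Timp3 was higher by 0.43 (limma adjusted p = 0.0495). Over the 21 genes with several tested probe sets, all probe sets of a gene had the same sign for 15 genes in this comparison, 12 in withdrawal against untreated and 18 in withdrawal against treated.

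The 3 cell markers did not pass on the deposited values. Acta2, smooth muscle actin, measured 9.61, 8.62 and 9.56 in treated, 9.71, 9.66 and 9.38 in withdrawal and 9.14, 8.85 and 9.11 in untreated islets. Pdgfra, a PDGF receptor of fibroblasts, measured 8.38, 7.20 and 7.44, then 7.95, 7.92 and 8.09, then 8.15, 7.86 and 8.17 in the same order. Pdgfrb, the PDGF receptor of pericytes and stellate cells, measured 7.29, 7.35 and 7.23, then 7.54, 7.43 and 7.64, then 7.41, 7.37 and 7.53. At the probe sets used, only Pdgfrb kept its treated arrays below all arrays of both other groups, by small amounts. Treated minus untreated differences were 0.23 ± 0.23 for Acta2, -0.39 ± 0.24 for Pdgfra and -0.15 ± 0.12 for Pdgfrb (SE; limma adjusted p = 0.463, 0.235 and 0.358). After quantile normalization Pdgfra and Pdgfrb were lower in treated islets (-0.67 and -0.35, limma adjusted p = 0.0231 and 0.0389). The probe sets of Pdgfrb did not share a sign. Another, nearly as bright, differed by -0.33 as deposited and -0.55 after quantile normalization, and a dimmer one by 0.27 and 0.23. Sparc was lower in treated islets after quantile normalization too, with -0.50 (limma adjusted p = 0.0496), against 0.06 as deposited. Its deposited values were 11.83, 11.30 and 11.86 in treated, 11.57, 11.64 and 11.54 in withdrawal and 11.63, 11.39 and 11.79 in untreated islets.

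The second comparison, withdrawal against untreated, asks how islets off the drug for 2 weeks, at 11 weeks, differed from islets never given it at 13 weeks. No member passed on the deposited values, where 0.159% of all probe sets did. At an unadjusted p under 0.05, 7 of the 43 genes differed (16.3%, beside 7.5% of all probe sets). After quantile normalization none passed after adjustment, where 0.42% of all probe sets did, and 15 genes (34.9%, beside 10.5%) had an unadjusted p under 0.05. The median difference was 0.09 beside -0.02 over all probe sets. Fibrillar collagen genes had the highest median among the roles, at 0.44.

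The withdrawal and untreated values did not overlap for 15 of the 43 genes. In 10 of them (23.3%, beside 7.65% of all probe sets) the withdrawal arrays were higher: Col1a1, Col1a2, Col5a2, Col12a1, Col6a3, Postn, Tgfbi, Lox, Timp1 and Acta2. In 5 (11.6%, beside 10.3%) they were lower: Fn1, Eln, Fbln5, Loxl1 and Mmp2. After quantile normalization 24 were higher (55.8%, beside 9.75%) and 3 were lower (6.98%, beside 11.6%). Lox and Loxl1 both encode enzymes that crosslink collagen and elastin. Postn differed most, by 1.98 ± 0.55 (SE; limma adjusted p = 0.334), followed by Timp1 with 1.37 ± 0.61 (limma adjusted p = 0.655), Fn1 with -0.97 ± 0.42 (limma adjusted p = 0.642) and Col1a1 with 0.90 ± 0.35 (limma adjusted p = 0.595). Tgfbi differed by 0.86 ± 0.38, Col1a2 by 0.79 ± 0.40, Col12a1 by 0.72 ± 0.37, Acta2 by 0.55 ± 0.23 and Eln by -0.49 ± 0.16, none of which passed.

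These tests shared the spread of all 9 arrays, and the treated arrays had the widest. A fit of only the 6 withdrawal and untreated arrays called 8 of the 43 genes, beside 2.39% of all probe sets. In that fit the differences are the same, and the limma adjusted p was 7.4e-05 for Postn, 0.00021 for Timp1, 0.00404 for Col12a1, 0.00476 for Col1a1, 0.00519 for Tgfbi, 0.00705 for Col1a2, 0.0333 for Acta2 and 0.0108 for Fn1. Fn1 was lower after withdrawal and the other 7 were higher. The fit with all 9 arrays is the main one, and by it these genes did not pass. Leaving out treated replicate 1 alone gave 4 calls (Postn, Timp1, Tgfbi and Fn1), beside 1.92% of all probe sets, and leaving out treated replicate 2 gave 1, Postn, beside 0.261%.

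The third comparison, withdrawal against treated, asks how islets sampled while on the drug at 9 weeks differed from islets sampled off it at 11 weeks. The elastic fibre genes Eln and Fbn1 and the fibril-surface collagens Col12a1 and Col14a1 were higher after withdrawal. On the deposited values 4 genes were higher (9.3%, beside 11.2% of all probe sets) and 1 was lower (2.33%, beside 32.6%). The median difference of the 43 genes was 0.21, beside -0.19 over all probe sets. After quantile normalization 30 genes were higher (69.8%, beside 14.5%) and 0 were lower (14.6% of all probe sets were), with a median of 0.75 beside -0.03. On the deposited values the 5 calls became 24 without treated replicate 1 (23 higher, beside 14.1% of all probe sets) and 3 without withdrawal replicate 2 (all higher, beside 6.42%). This comparison shares the treated arrays with the first and the withdrawal arrays with the second.

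Fbn1 rose by 0.94 ± 0.23 (SE; limma adjusted p = 0.00779), Eln by 0.69 ± 0.16 (limma adjusted p = 0.00569) and Col14a1 by 0.66 ± 0.18 (limma adjusted p = 0.0122). These calls held with each array left out in turn and after quantile normalization. Other probe sets of Fbn1 and Col14a1 were higher too (0.79 and 0.43, limma adjusted p = 0.04 and 0.0161). The dim second Eln probe set did not pass (0.13, limma adjusted p = 0.555). Dimmer probe sets of Timp2, Mmp2, Col6a2 and Col6a3 were higher, though the ones used did not pass. Their differences were 0.67, 0.46, 0.40 and 0.40 (limma adjusted p = 0.00167, 0.0131, 0.0251 and 0.0272). Col12a1, another collagen of the fibril surface, measured 6.69, 4.60 and 5.91 in treated, 6.98, 6.96 and 6.75 in withdrawal and 6.15, 6.09 and 6.29 in untreated islets. All withdrawal arrays lay above all treated arrays, of which replicate 1 came close. The difference was 1.16 ± 0.37 (SE; limma adjusted p = 0.0253), and it missed the threshold without withdrawal replicate 1 (limma adjusted p = 0.0771) or 2 (limma adjusted p = 0.0764).

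Timp3, a matrix-bound metalloproteinase inhibitor, was the gene that fell. It measured 9.59, 9.36 and 9.57 in treated, 9.17, 8.94 and 9.20 in withdrawal and 9.32, 9.18 and 9.33 in untreated islets, and the treated arrays were above all others. The difference of -0.40 ± 0.13 (SE; limma adjusted p = 0.0222) lost its call without treated replicate 3 or withdrawal replicate 2 and turned to 0.26 after quantile normalization (limma adjusted p = 0.108). At this probe set the direction thus depends on the scaling. Of its other 3 probe sets, 1 was lower on the deposited values (-0.66, limma adjusted p = 0.00478) with -0.03 after quantile normalization, 1 was lower (-0.39, limma adjusted p = 0.0273) with -0.33, and 1 did not pass (-0.12, limma adjusted p = 0.597) with 0.13. Quantile normalization also brought Fn1 (1.21, limma adjusted p = 0.0165), Col1a1 (1.07, limma adjusted p = 0.0205) and Acta2 (1.0, limma adjusted p = 0.00583) past the threshold. Their deposited differences were 0.61, 0.34 and 0.32.

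**Figure D3:**
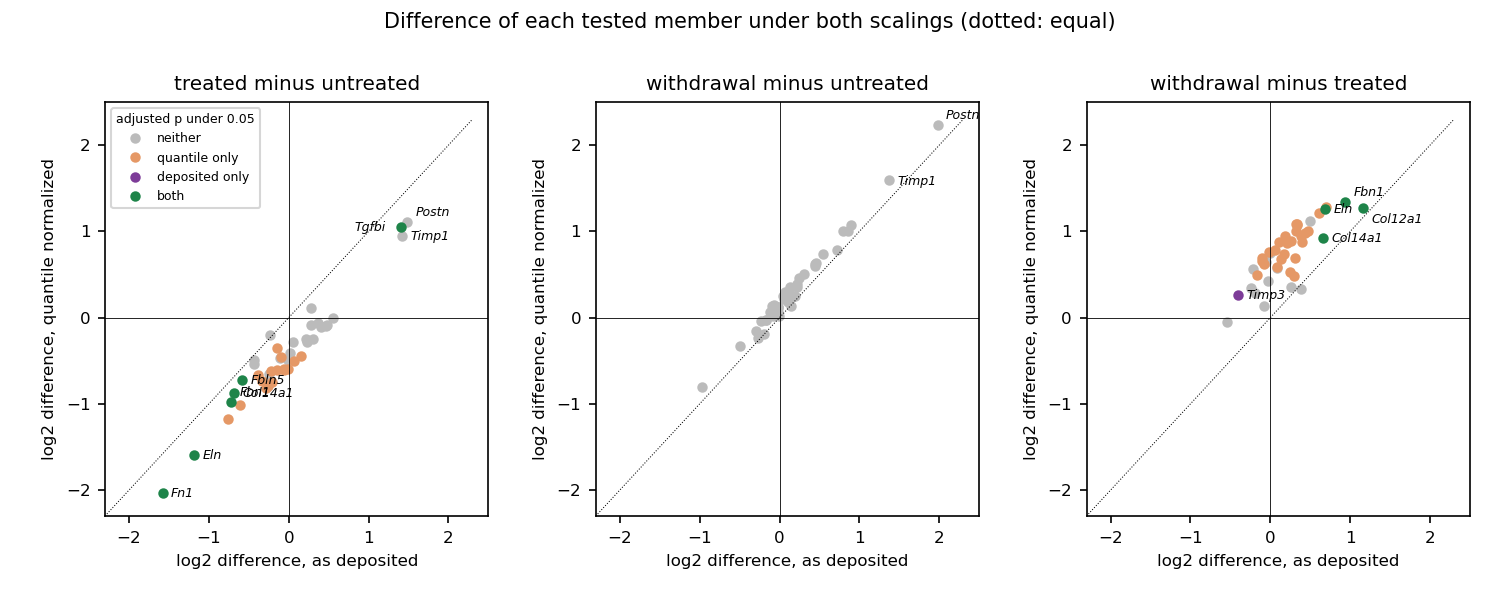
Each point is 1 of the 43 tested genes, with its log2 difference on the deposited values along the horizontal axis and after quantile normalization along the vertical axis, and a panel for each comparison. Colours mark whether limma's adjusted p was under 0.05 on either or both scalings. Nearly all points of the first panel lie below the dotted line of equal values and nearly all of the last lie above it, while those of the middle panel stay close to the line.

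The moderated F test, which asks whether a gene differed among the 3 groups at all, called 7 of the 43 genes (16.3%, beside 37% of all probe sets). These were Eln, Col14a1, Fbn1, Fbln5, Fn1, Postn and Tgfbi, with limma adjusted p from 0.0016 (Eln) to 0.0326 (Tgfbi). After quantile normalization it called 30 genes (69.8%, beside 24.5%). As deposited, it called 25 without treated replicate 1 (beside 41.6% of all probe sets) and 12 without treated replicate 2 (beside 36.8%). It called 3 without treated replicate 3, withdrawal replicate 2 or untreated replicate 1 (beside 33.4%, 23% and 31.4%). Without withdrawal replicate 1 or untreated replicate 3 it called 4 (beside 25.4% and 32.2%).

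Spread among replicates was much wider in treated islets than in the other groups, a measure chosen after the values were seen. The median SD of the 43 genes was 0.60 in treated, 0.14 in withdrawal and 0.23 in untreated islets, beside 0.22, 0.12 and 0.14 over all probe sets. The treated arrays differed by more than 1 log2 unit for 30 of the 43 genes (69.8%, beside 6.81% of all probe sets), the untreated arrays for 1 gene and the withdrawal arrays for 0. After quantile normalization the treated SD was 0.42 (beside 0.18), and the treated arrays differed by more than 1 for 17 genes (39.5%, beside 3.89%). Timp1, Postn, Mmp14, Col1a2 and Fn1 were the most variable in treated islets. Mmp14, a metalloproteinase anchored in the cell membrane, measured 9.43, 7.03 and 8.06 there.

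The members mostly moved together among the treated arrays. Treated replicate 1 was the highest of the 9 arrays for 31 of the 43 genes (43.4% of all probe sets) and treated replicate 2 the lowest for 33 (10.3% of all probe sets). Replicate 1 was above replicate 3 and replicate 3 above replicate 2 for 35 of the 43 (27.1% of all probe sets). After quantile normalization treated replicate 2 was the lowest for 35 genes, and treated replicate 1 was the highest for only 5. Fbln5 and Col14a1 instead had treated replicate 3 lowest, and Pdgfrb varied by little.

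Markers of other cell types varied too, both among the treated arrays and between groups. The mean of the 44 measured matrix and stellate genes was 9.51, 8.19 and 8.77 on the treated arrays, between 8.97 and 9.17 on the withdrawal arrays and between 8.67 and 9.07 on the untreated arrays. The 15 macrophage and myeloid markers averaged 7.97, 6.47 and 7.14 on the treated arrays, 7.54 to 7.73 after withdrawal and 7.01 to 7.18 in untreated islets. The 8 duct markers averaged 10.10, 9.07 and 9.46 on the treated arrays, 9.05 to 9.32 after withdrawal and 8.96 to 9.37 in untreated islets. Treated replicate 1 was the highest and treated replicate 2 the lowest of the treated arrays for both lists, as for the matrix genes. The 20 stellate, pericyte and smooth muscle markers averaged 7.55, 6.63 and 6.92 in treated, 6.96 to 7.17 in withdrawal and 6.76 to 6.91 in untreated islets. The 12 endothelial markers averaged 8.44, 7.91 and 7.82 on the treated arrays, and the beta cell markers 12.04, 11.88 and 11.93, both with smaller gaps below replicate 1. Between groups, 3 of 8 tested lymphocyte markers (Il7r, Cd3g and Cd3e) were lower in treated than in untreated islets, beside 7.24% of all probe sets. In withdrawal against treated islets 5 of 8 were higher, beside 11.2%. The counts were the same after quantile normalization, beside 9.44% and 14.5%. These markers were dim: of the 10 on the array, 2 were above the array's median on each of the 9 arrays. The lymphocyte list averaged 5.39 to 5.53 on treated, 5.78 to 5.97 on withdrawal and 5.67 to 5.76 on untreated arrays. Il7r differed by -0.90 and then 1.08 (limma adjusted p = 0.00387 and 0.000994). Of the macrophage and myeloid markers, Aif1 differed by -0.55 and then 0.72 in the same comparisons (limma adjusted p = 0.0187 and 0.00301). It was the 1 of 13 called in treated against untreated islets, where 7.24% of all probe sets were lower. In withdrawal against treated islets 2 of the 13 were higher as deposited (beside 11.2%) and 7 after quantile normalization (beside 14.5%). Among the 7 beta cell markers, 3 were higher in treated than in untreated islets, beside 20.9% of all probe sets. In withdrawal against treated islets 4 were lower, beside 32.6%. After quantile normalization these counts were 0 (beside 7.75%) and 3 (beside 14.6%). The beta cell list averaged 11.15 to 11.36 on withdrawal and 11.35 to 11.64 on untreated arrays. Of 8 genes for hormones and other products of the other islet cells, Pyy, Sst and Ppy were higher in treated than in untreated islets and lower in withdrawal than in treated islets, on both scalings. The shares of all probe sets are those given beside the beta cell markers. Sst, which encodes somatostatin, differed by 1.29 and then -1.93 (limma adjusted p = 0.00129 and 0.000329). Ttr was called in the opposite directions, after quantile normalization alone. That list averaged 9.69 to 10.03 on treated, 8.98 to 9.20 on withdrawal and 9.18 to 9.33 on untreated arrays. The part of cell makeup in the matrix results was not tested.

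**Figure D4:**
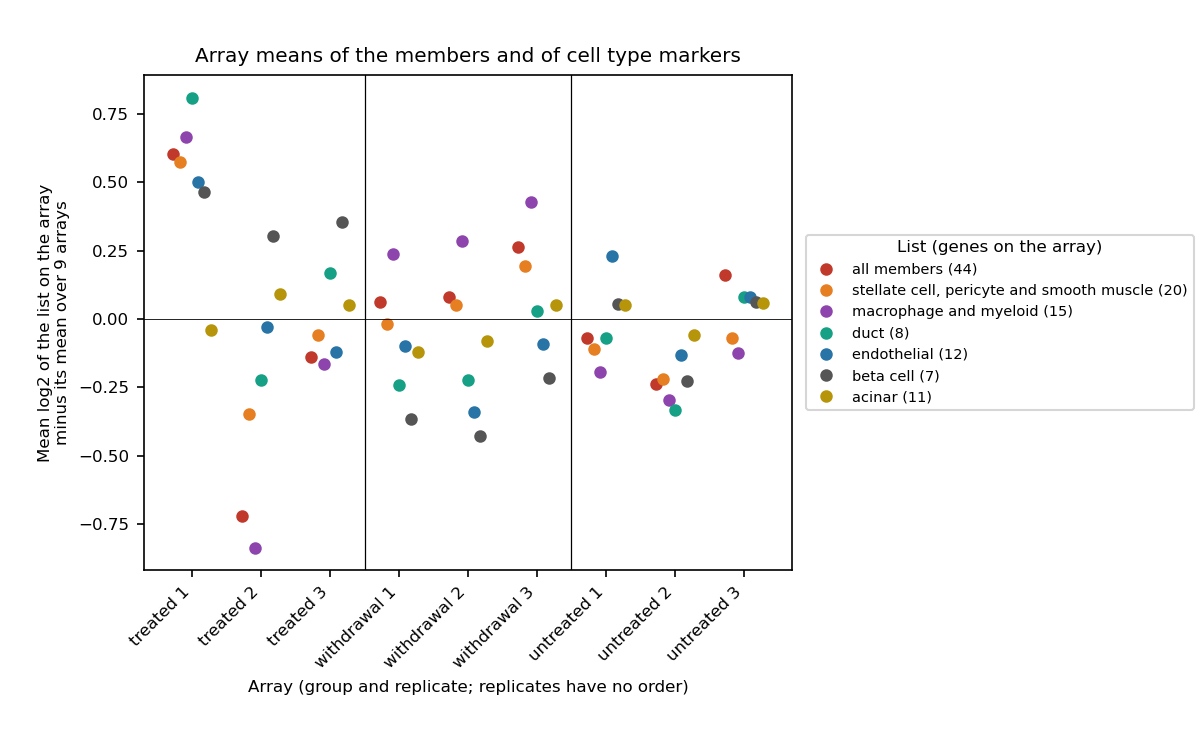
For each array, points show the mean log2 value of a list of genes on the deposited scale, minus that list's mean over the 9 arrays, and the legend gives the number of genes in each list. Matrix and stellate genes, stellate and smooth muscle markers, macrophage markers and duct markers are all high on treated replicate 1, and the first 3 of these lists are lowest on treated replicate 2. Acinar markers stay near 0 on all arrays. Their array means of 13.76 to 13.97 lie close to 14.36, the highest of all values, so evenness of acinar RNA cannot be read from them.

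Genes next to these in the pathway were taken from 6 lists. None of their tested genes passed in withdrawal against untreated on the deposited values, and after quantile normalization 1 did, the laminin gene Lama3, which was lower. Counts are given as deposited, where 20.9% of all probe sets were higher and 7.24% lower in treated against untreated islets, and 11.2% higher and 32.6% lower in withdrawal against treated. Counts after quantile normalization follow, where these shares were 7.75% and 9.44%, then 14.5% and 14.6%. In the TGF beta list of ligands, receptors and response genes, 2 of 23 were higher and 2 lower in treated against untreated islets, and the median was 0.16. After quantile normalization 1 was higher and 3 lower, with a median of -0.15. Bambi, a decoy receptor that dampens TGF beta signals, was higher by 1.07 (limma adjusted p = 0.00228) in treated islets and fell by 1.21 after withdrawal (limma adjusted p = 0.000797). Ltbp2, which encodes a latent TGF beta binding protein of elastic fibres, went the other way, with -0.84 (limma adjusted p = 0.00473) and then 1.0 (limma adjusted p = 0.00116). The ligand gene Tgfb3 was lower in treated islets (-0.66, limma adjusted p = 0.017). In withdrawal against treated islets 1 gene of this list was higher and 4 were lower as deposited, with a median of -0.13, and 8 were higher and 1 lower after quantile normalization, with a median of 0.33. Of the PDGF ligands 2 were tested and neither passed.

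Among 17 enzymes and transport factors for collagen, 3 were higher and 0 lower in treated against untreated islets, and 0 were higher and 5 lower in withdrawal against treated. After quantile normalization 1 was higher and 1 lower in the first comparison, and 4 were higher and 0 lower in the second, so the balance of this list depends on the scaling. P4ha2, a prolyl hydroxylase subunit, was higher by 0.82 in treated islets (limma adjusted p = 0.00228) and lower by 0.83 after withdrawal (difference -0.83, limma adjusted p = 0.00106). After quantile normalization its first difference was 0.36 (limma adjusted p = 0.0274) and its second was -0.26, which did not pass (limma adjusted p = 0.0669). Ppib, a prolyl isomerase that folds collagen, was higher by 0.56 in treated islets as deposited (limma adjusted p = 0.0111), with -0.02 after quantile normalization (limma adjusted p = 0.936). Of 19 matrix proteases and inhibitors 2 were higher and 2 lower in treated against untreated islets, with a median of -0.08, and after quantile normalization 0 were higher and 1 lower, with a median of -0.30. Adamts5, an enzyme that cleaves large proteoglycans, was lower by limma (difference -0.71, adjusted p = 0.0133).

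Of 21 integrins and other matrix receptors, 3 were higher and 1 lower in treated against untreated islets, with a median of 0.10. After quantile normalization 1 was higher and 3 lower, with a median of -0.13. Sdc4, a cell surface proteoglycan, was higher by 1.28 (limma adjusted p = 0.00126). The collagen receptors Ddr1 and Ddr2 differed in opposite directions, by 0.54 (limma adjusted p = 0.00949) and -0.70 (limma adjusted p = 0.024), but the first became 0.10 after quantile normalization and did not pass (limma adjusted p = 0.496). Of 40 other collagens and matrix proteins 3 were higher and 6 lower as deposited, and 3 higher and 13 lower after quantile normalization. Col27a1, a fibrillar collagen outside the 45 genes, was higher by 1.86 in treated islets (limma adjusted p = 4.89e-05) and fell by 1.30 after withdrawal (limma adjusted p = 0.00047), and it passed on both scalings. Emilin1, a glycoprotein of elastic fibres, was also higher in treated islets, by 0.89 (limma adjusted p = 0.0125), while Lama2, a laminin chain, was lower (-0.51, limma adjusted p = 0.0128).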

How the data were processed

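RNA of pancreatic islets was measured on 9 Affymetrix Rat Genome 230 2.0 arrays, 3 per group. The deposited table gave 1 value per probe set and array, taken to be on the log2 scale because all values lay between 2.58 and 14.36. RMA and MAS5 were used by the authors, per the submitters' processing notes; their roles and versions were not given in the sources used here. The authors' values were used as deposited. Arrays have no read depth, so the number of arrays limits the precision, and where nothing says that arrays came from separate animals, p-values measure only the spread between these samples.

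Of 31099 probe sets, 57 controls were left out. The platform annotation gave 1 symbol for 20826 of the remaining 31042, several for 436 and none here for 9780. Symbols were updated through RefSeq genes of GRCr8, by gene number for 20758 and by accession for 2, and 66 were kept. The lowest 33.3% by mean log2 were left out, so 20695 were tested. R 4.3.3 and limma 3.58.1 gave the differences, from 1 fit of group means over all 9 arrays (lmFit, then eBayes), with Benjamini-Hochberg adjustment over all tested probe sets. Age and treatment differ together, so no covariate was fitted. The test was checked on simulated data. With 3 arrays against 3, an exact permutation test could not give a two-sided p below 0.1 and was not used.

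The members and all lists were chosen with earlier results of these data known. Values on every array are given for genes called in any comparison or the F test, for the 4 smallest p of each comparison, and for Col1a1, Col1a2, Col3a1, Fn1, Sparc, Acta2, Pdgfra, Pdgfrb and Timp1. Thbs1 was on the same list but was not analysed here. Of each other list at most 4 called genes were to be named, those with the smallest p. Mmp14 was named for its spread, and the second probe sets, spread, array order and printed promoters were chosen after their values were seen. The alternatives tried were array weights, quantile normalization, centring of the arrays, a filter on the lowest 50% or none, trend and robust settings, a block for the replicate number, a fit of only 6 arrays, the mean over probe sets, and leaving out each array. Quantile normalization without each treated array was added after seeing the data. Python 3.11.15 with matplotlib 3.10.9 drew the figures. Promoters are RefSeq sequences, read to 250 bases before the start.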

Additional observations from a re-analysis of the deposited data

How the results depend on the processing

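Over the 43 genes, centring, no filter, a filter on the lowest 50%, trend and robust settings and the mean over probe sets kept each count of calls within 1.5 times. Of 9 same-number correlations of deviations, 5 were over 0.1 (range -0.28 to 0.50), and 3 of 9 arrays matched best with their own number. These values cannot settle whether the replicate numbers pair the samples, and the main fit used no pairing. With the replicate block the counts were 8 for treated against untreated, 0 for withdrawal against untreated, 6 for withdrawal against treated and 9 for the F test. The shares of all probe sets were 31%, 0.242%, 45.6% and 39.5% in the same order.

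For treated against untreated (6 calls), the count was 22 after quantile normalization, 17 with array weights and 3 with only the 6 arrays. Of all probe sets, 28.1% were called in the main fit, and 17.2%, 34.7% and 15.5% in these settings. The count was 3 to 18 with 1 array left out. It was 18 without treated replicate 1 (beside 30.5%), 12 without treated replicate 2 (beside 30.4%), and 3 without untreated replicate 2 or 3 (beside 9.82% and 20.9%). After quantile normalization without treated replicate 1, 2 or 3 it was 29, 17 and 13, beside 22.1%, 16.3% and 12%. For withdrawal against untreated (0 calls), the count was 10 with array weights (7 higher), 8 with only the 6 arrays, 0 to 4 with 1 array left out, and 5 and 6 after quantile normalization without treated replicate 1 or 2. Over all probe sets, 0.159% were called in the main fit, 15.8% with array weights and 2.39% with only the 6 arrays. The 4 calls came without treated replicate 1, beside 1.92%. In the last 2 settings the shares were 1.98% and 0.957%. For withdrawal against treated (5 calls, beside 43.8% of all probe sets), the count was 30 after quantile normalization (beside 29.1%) and 15 with array weights (beside 54.3%). It was 3 to 24 with 1 array left out: 24 without treated replicate 1 (beside 46%) and 3 without withdrawal replicate 2 (beside 27%). After quantile normalization without treated replicate 1, 2 or 3 it was 39, 27 and 26, beside 32.8%, 25.9% and 23.4%. The F test (7 calls, beside 37% of all probe sets) gave 30 after quantile normalization (beside 24.5%) and 22 with array weights (beside 55%). With 1 array left out it gave 3 to 25, the 25 without treated replicate 1 (beside 41.6%). After quantile normalization without treated replicate 1, 2 or 3 it gave 39, 27 and 22, beside 29.9%, 21.7% and 16.7%.

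The median of the genes for treated against untreated moved from -0.06 to -0.49 after quantile normalization, and to -0.63 and -0.50 without treated replicate 1 or 3 as well. For withdrawal against treated it moved from 0.21 to 0.75, 1.0 and 0.78 in the same settings. With 1 array left out on the deposited values, the 2 medians ran from -0.27 to 0.21 and from -0.17 to 0.51, and the highest of the first and lowest of the second were without treated replicate 2.

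Among the 17 named genes, 1071 values under alternatives held 11 reversals that involved a call, 21 lost calls and 96 gained calls. A further 53 changed sign where neither value was called, the largest from a deposited difference of 0.55, and these are counted with the values that kept their side of the threshold. Sparc reversed for treated against untreated (-0.50 after quantile normalization and -0.68 without treated replicate 3 as well) and for withdrawal against treated (0.62 after quantile normalization, and 0.60, 0.49 and 0.80 without treated replicate 1, 2 or 3). Timp3 reversed for withdrawal against treated (0.26, and 0.17, 0.26 and 0.33 in the same settings), and Timp1 did so at 1.26 after quantile normalization without treated replicate 1. Array weights were lowest for treated replicate 1 (0.163). The cause of these changes was not tested. The signal of Vcan, the one gene below the filter, limits what can be said of it.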
